A study of Mus musculus with 4 samples.

Results

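The Pou3f and Pou4f genes encode neural transcription factors of the POU family. They were taken here as 7 genes chosen by name, Pou3f1, Pou3f2, Pou3f3, Pou3f4, Pou4f1, Pou4f2 and Pou4f3, out of 22367 protein-coding genes of the GENCODE vM1 annotation of mouse build mm9. The family came to notice through its H3K4me3 ratio between the libraries described here, so those ratios and the Jarid1b enrichment are given as a description and not as a test of the family. The data were chromatin immunoprecipitation sequencing (ChIP-seq) libraries of E14TG2a.4 mouse embryonic stem cells, a line that grows without feeder cells, cultured with LIF. One H3K4me3 library came from cells transduced with a pLKO.1 lentivirus carrying a Jarid1b short hairpin RNA (Jarid1b shRNA), and 1 from cells given the scramble construct in the same vector. Transduced cells were selected with puromycin, so both H3K4me3 libraries are from selected populations of 1 parental line. A further 2 libraries were made with an antibody against Jarid1b, from cells the labels call E14 ESCs. The labels do not give separate cultures, and with 1 H3K4me3 library per condition no difference between them has a replicate check.

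POU factors bind DNA through a paired POU-specific domain and POU homeodomain, and they take their name from Pit-1, Oct-1 and unc-86. The Pou3f proteins, known as Oct6 (Pou3f1), Brn2 (Pou3f2), Brn1 (Pou3f3) and Brn4 (Pou3f4), act in neural progenitors, in cortical and hypothalamic neurons, in Schwann cells and in the inner ear. The Pou4f proteins, Brn3a (Pou4f1), Brn3b (Pou4f2) and Brn3c (Pou4f3), are needed by sensory neurons, retinal ganglion cells and auditory hair cells. H3K4me3, trimethylation of lysine 4 of histone H3, marks promoters, and Jarid1b, the product of Kdm5b, removes methyl groups from that lysine. In embryonic stem cells many developmental genes of this kind carry H3K4me3 while they are little transcribed.

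Promoter windows ran 1 kb to each side of the transcription start site (TSS). They were rich in G and C and in the dinucleotide CpG at most of the genes. Pou3f1 had 73.0% GC and 239 CpG, the 99.9th percentile of all promoters by GC. Pou3f3 had 70.7% and 227, Pou3f2 63.4% and 143, Pou4f2 60.6% and 118, Pou4f1 60.5% and 176, Pou4f3 55.6% and 101, and Pou3f4 50.9% and 75. The median promoter had 51.1% GC and 60 CpG, so Pou3f4 stood near the middle and Pou3f1 and Pou3f3 at the upper end. The 200 bases upstream of the most upstream annotated start are shown for 4 of the genes, on the gene's own strand on mm9, 5′ to 3′, with CpG in capitals. Pou1f1, a pituitary POU gene with hardly any CpG, is set beside them, and the first 200 bases of the Pou3f3 coding sequence are shown because they begin the 500 bases in which its H3K4me3 ratio was highest.
Pou3f1, chr4:124334689-124334888, plus strand: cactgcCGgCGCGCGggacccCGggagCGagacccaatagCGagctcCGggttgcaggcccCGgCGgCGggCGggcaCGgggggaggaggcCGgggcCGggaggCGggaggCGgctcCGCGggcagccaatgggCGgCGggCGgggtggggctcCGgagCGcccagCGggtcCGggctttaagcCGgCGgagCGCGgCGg
Pou3f3, chr1:42752413-42752612, plus strand: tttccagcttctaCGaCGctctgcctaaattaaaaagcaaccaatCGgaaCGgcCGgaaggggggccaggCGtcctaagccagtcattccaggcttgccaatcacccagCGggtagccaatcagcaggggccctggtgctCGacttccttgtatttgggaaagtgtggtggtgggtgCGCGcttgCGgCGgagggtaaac
Pou3f3 coding start, chr1:42753991-42754190, plus strand: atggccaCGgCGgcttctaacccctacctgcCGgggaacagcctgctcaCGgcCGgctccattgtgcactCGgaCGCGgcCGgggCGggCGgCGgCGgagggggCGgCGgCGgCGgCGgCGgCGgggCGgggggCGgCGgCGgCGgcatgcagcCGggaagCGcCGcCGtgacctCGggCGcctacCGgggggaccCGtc
Pou3f4, chrX:108009518-108009717, plus strand: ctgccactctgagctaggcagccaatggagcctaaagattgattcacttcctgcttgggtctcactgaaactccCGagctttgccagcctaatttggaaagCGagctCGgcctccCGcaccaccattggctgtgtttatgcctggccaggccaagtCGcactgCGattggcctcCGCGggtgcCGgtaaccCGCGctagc
Pou4f1, chr14:104867217-104867416, minus strand: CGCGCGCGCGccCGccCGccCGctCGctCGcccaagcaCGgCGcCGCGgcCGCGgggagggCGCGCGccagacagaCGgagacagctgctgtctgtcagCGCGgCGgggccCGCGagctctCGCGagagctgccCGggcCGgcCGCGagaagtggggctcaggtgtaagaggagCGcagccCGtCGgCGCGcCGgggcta
Pou1f1, chr16:65520647-65520846, plus strand: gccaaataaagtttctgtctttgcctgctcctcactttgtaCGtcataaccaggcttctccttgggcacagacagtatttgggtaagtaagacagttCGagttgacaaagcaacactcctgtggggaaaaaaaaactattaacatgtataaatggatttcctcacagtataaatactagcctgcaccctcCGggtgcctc
These stretches held 31 CpG at Pou3f1, 12 upstream of Pou3f3, 33 in the Pou3f3 coding start, 11 at Pou3f4, 37 at Pou4f1 and 3 at Pou1f1. Their GC content was 82.0%, 58.0%, 81.0%, 59.0%, 79.5% and 43.5% in that order. The octamer ATGCAAAT, the classical POU motif, was searched on both strands and occurred in 0 of the 7 windows of 2 kb, whereas 9.04% of all promoter windows held it. GCACA, a core bound by the ARID domain of Jarid1b in vitro, occurred 2 to 8 times in each of the 7 windows and in 98.2% of all windows, also on both strands. These are matches of letters and say nothing of binding.

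The 4 Pou3f genes each had a single exon in the annotation. Pou3f1 lay at chr4:124334896-124337899 on the plus strand, Pou3f2 at chr4:22413791-22415480 on the minus strand, Pou3f3 at chr1:42753991-42757052 on the plus strand and Pou3f4 at chrX:108009729-108010910 on the plus strand. Pou4f1 had 3 exons at chr14:104862737-104867216 on the minus strand, Pou4f2 had 2 at chr8:80956908-80960551 on the minus strand, and Pou4f3 had 2 at chr18:42554251-42555747 on the plus strand. A pseudogene entry that overlaps Pou3f1 under the same name was not used for the read counts. The stretch printed above for Pou3f1 ends before chr4:124334889, whereas its counts used the TSS at chr4:124334896.

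The Jarid1b shRNA library kept 2635705 reads and the scramble library 5158330, after 1 read was kept per position and strand. The Jarid1b libraries kept 4336767 and 1602370. A share of 7.56% of the rows of the Jarid1b shRNA library repeated a position, against 31.5% of the scramble library. Stem cell markers, among them Pou5f1 (47.8 RPM, reads scaled to the total kept, in the Jarid1b shRNA library against 77.7 RPM in the scramble library) and Nanog (19.7 against 46.3 RPM), were enriched for H3K4me3 at 6 of 8 promoters in the Jarid1b shRNA library and at 7 of 8 in the scramble library, and 4 of 7 compared were lower. Their summed level was 211 RPM in the Jarid1b shRNA library and 292 RPM in the scramble library, with Esrrb alone at 0 in the Jarid1b shRNA library and none at 0 in the scramble library. The 5 fibroblast markers summed to 48.5 against 17.5 RPM and the 3 neural markers measured to 34.5 against 16.1 RPM, with none at 0 in either library. Kdm5b itself had 155 reads (58.8 RPM) in the Jarid1b shRNA library and 153 reads (29.7 RPM) in the scramble library, a log2 ratio of 0.99 (0.66 to 1.32), which as a chromatin mark does not check the loss of its mRNA. The part of cell state or depth in the results below was not tested.

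H3K4me3 was higher at 5 of the 7 Pou3f and Pou4f promoters in the Jarid1b shRNA library than in the scramble library, and at none was it lower. Higher means a ratio of RPM of at least 2-fold whose exact 95% interval excludes no change, among promoters that passed the test of enrichment described next in 1 or both libraries and held 20 or more reads in total. Of all 13273 promoters compared, 24.0% were higher and 2.37% lower. All 7 genes met the reads required. The median log2 ratio of the 7 was 1.78, beside 0.41 over all promoters compared. H3K4me3 enrichment over background was called by a one-sided Poisson test, adjusted by the Benjamini-Hochberg method, at 7 of 7 genes in the Jarid1b shRNA library, where 59.9% of all promoters were enriched. In the scramble library it was called at 6 of 7, all except Pou3f3, where 60.0% of all promoters were enriched.

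**Figure D1:**
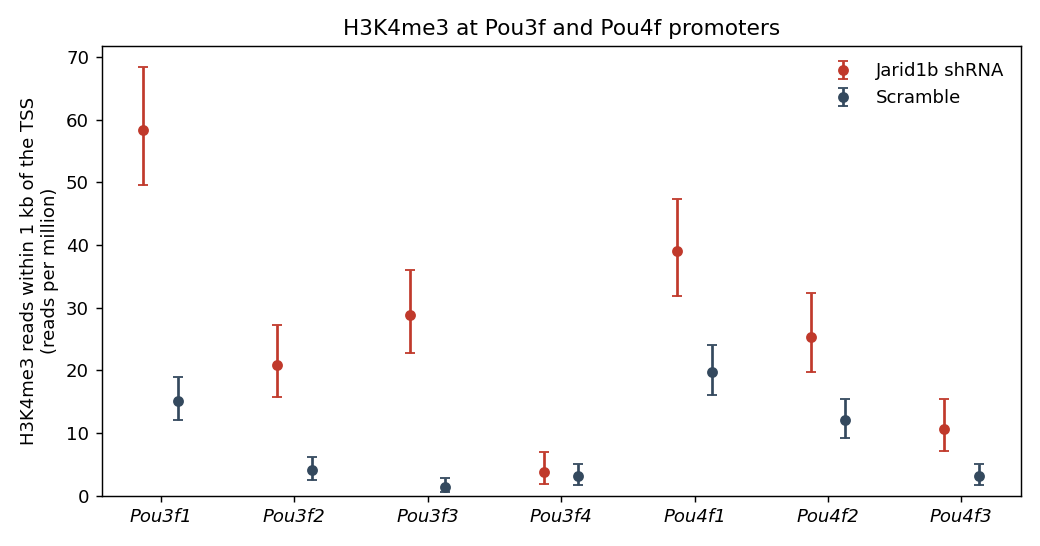
H3K4me3 within 1 kb of each TSS in RPM, in the Jarid1b shRNA library (red) and the scramble library (dark blue), with exact 95% Poisson intervals for counting error (1 library each). The red points lie above the dark blue ones by more than both intervals at 6 genes, and the points of Pou3f4, 3.79 and 3.10 RPM, overlap.

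Pou3f1, which is active in the epiblast and in myelinating Schwann cells, had the highest level of the 7 in the Jarid1b shRNA library. It held 154 reads (58.4 RPM) there and 78 reads (15.1 RPM) in the scramble library. The log2 ratio was 1.95 (95% interval 1.55 to 2.36). Among the promoters compared this was the 96.2nd percentile of level in the Jarid1b shRNA library and the 42.5th in the scramble library.

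Pou3f2, a factor used in mixtures that convert fibroblasts into neurons, held 55 reads (20.9 RPM) in the Jarid1b shRNA library and 21 reads (4.07 RPM) in the scramble library, a log2 ratio of 2.36 (1.61 to 3.16). Its signal lay to 1 side of the TSS. The first 1 kb downstream held 51 and 18 reads, whereas the 1 kb upstream held 4 and 3. Between 5 and 1 kb upstream of Pou3f2 a weaker stretch held 23 reads in the Jarid1b shRNA library and 26 in the scramble library, with a ratio of 0.79 (−0.08 to 1.66) that included no change.

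Pou3f3, which acts with Pou3f2 in cortical layer formation and in the kidney, had the second highest ratio of all promoters compared. It held 76 reads (28.8 RPM) in the Jarid1b shRNA library and 7 reads (1.36 RPM) in the scramble library, a log2 ratio of 4.41 (3.30 to 5.77). The scramble level was 1.59 times its expected background (0.64 to 3.28) and did not pass the test, whereas the Jarid1b shRNA level was 8.84 times (6.96 to 11.1). With repeated positions kept, the counts were 82 rows and 9 rows.

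The window of Pou3f3 was not centred on the start that RefSeq gives. The GENCODE entry began at the start codon, with no 5′ untranslated region, 1378 bases downstream of the RefSeq start, which was placed on mm9 by an exact match of the RefSeq promoter sequence. Around the RefSeq start Pou3f3 held 36 reads in the Jarid1b shRNA library and 14 in the scramble library, and the ratio was 2.33 (1.41 to 3.34). Over 5 kb to each side of the GENCODE start it held 139 and 38 reads, a ratio of 2.84 (2.31 to 3.40). Pou3f3 was therefore higher in the Jarid1b shRNA library in all of these windows, by a size that depended on the window. The scramble library passed the test of enrichment around the RefSeq start. For Pou3f2, Pou3f4, Pou4f1 and Pou4f2 the RefSeq starts lay 33, 11, 0 and −5 bases upstream, where a negative value is downstream, and no RefSeq promoter was used for Pou3f1 and Pou4f3.

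The largest difference at Pou3f3 lay in its most GC-rich stretch. From 500 bases upstream to the GENCODE start, at 81.0% GC, it held 20 reads in the Jarid1b shRNA library and 1 in the scramble library (log2 ratio 5.29, 2.65 to 10.66). The first 500 bases downstream, at 77.0% GC and including the coding start printed above, held 32 and 1 (5.97, 3.39 to 11.32). The next 500 bases, at 75.2% GC, held 19 and 2 (4.22, 2.17 to 7.36). In the 4 neighbouring stretches of 500 bases between 3 and 1 kb upstream, at 55.2% to 62.6% GC, Pou3f3 held 6, 9, 12 and 8 reads in the Jarid1b shRNA library and 4, 5, 4 and 6 in the scramble library. Their ratios ran from 1.38 to 2.55. The scramble library thus showed more reads on both flanks of the Pou3f3 coding start than over it, whereas the Jarid1b shRNA library had its maximum there.

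**Figure D2:**
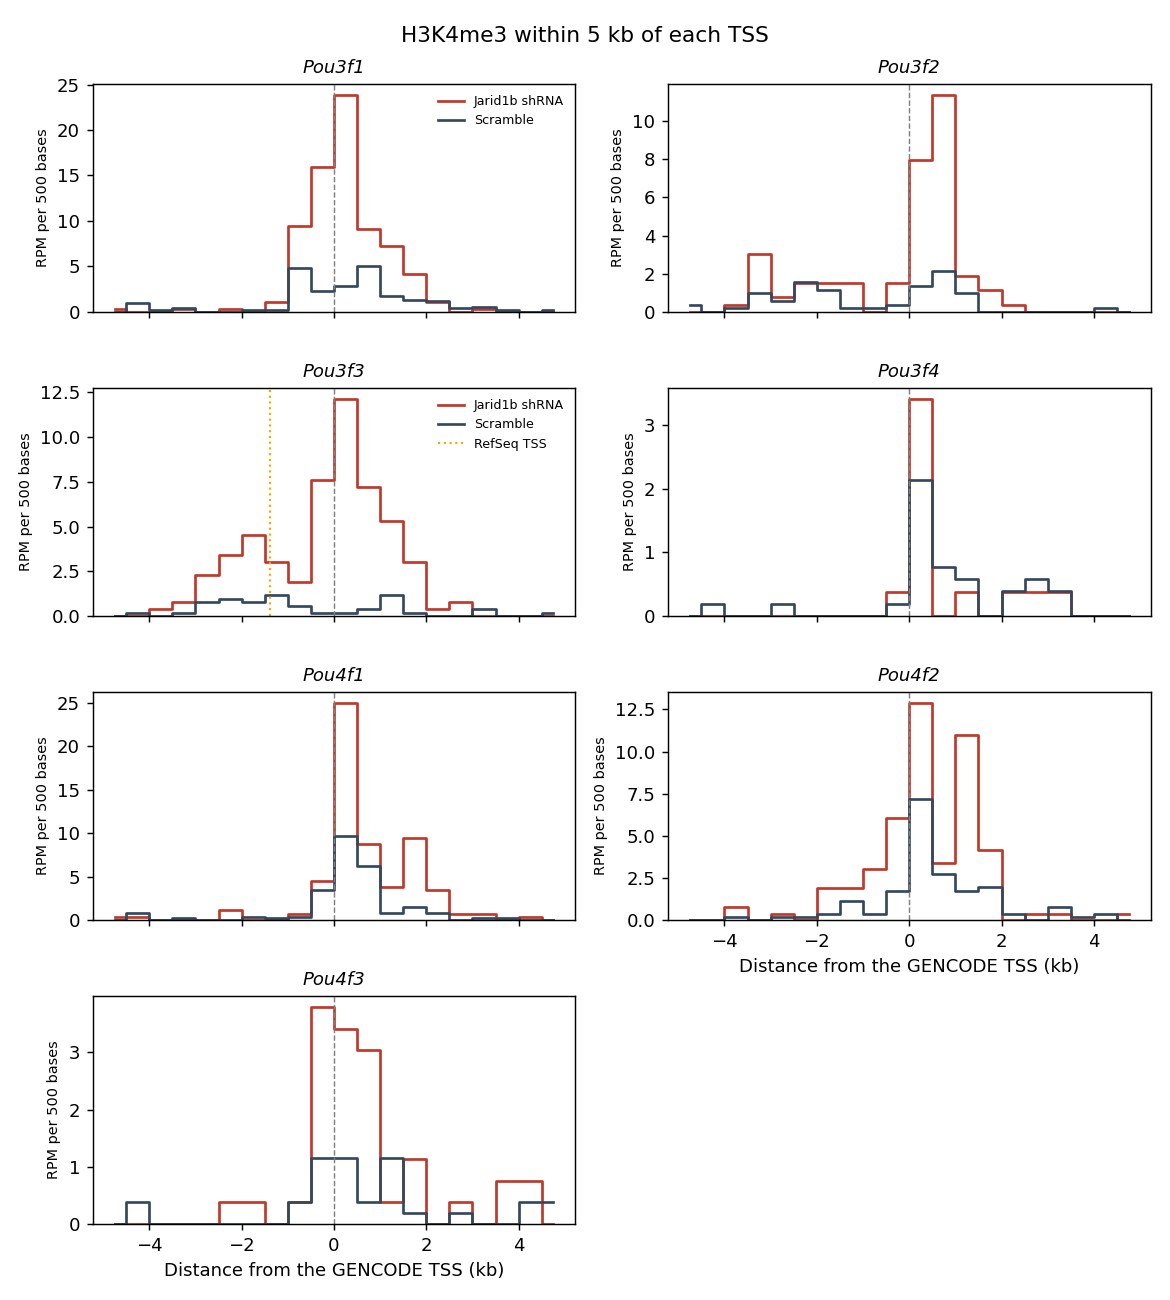
H3K4me3 in RPM per 500 bases within 5 kb of each GENCODE TSS (dashed line; positive distances are downstream), in the Jarid1b shRNA library (red) and the scramble library (dark blue), 1 library each. The vertical scale differs between genes. At Pou3f3 the red line peaks just downstream of the TSS while the dark blue line dips there, and the dotted line marks the RefSeq start 1378 bases upstream.

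Pou3f4, an X-linked gene of the inner ear and neural tube, was the only Pou3f gene that was not called. It held 10 reads (3.79 RPM) in the Jarid1b shRNA library and 16 reads (3.10 RPM) in the scramble library. Its ratio of 0.29 had an interval of −1.01 to 1.52, so a difference of 2-fold in favour of either library was not excluded at this depth. Both libraries had their few reads just downstream of the start of Pou3f4, with 9 and 15 reads in the first 1 kb and 1 read each in the 1 kb upstream.

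Among the Pou4f genes, Pou4f1, a factor of sensory ganglia, had the highest scramble level of the 7. It held 103 reads (39.1 RPM) in the Jarid1b shRNA library and 102 reads (19.8 RPM) in the scramble library. The log2 ratio of 0.98 (0.57 to 1.39) fell just short of 2-fold. Further into the gene, from 1 to 5 kb downstream, Pou4f1 held 49 and 18 reads and the ratio was 2.41 (1.61 to 3.28), against 1.09 (0.64 to 1.54) in the first 1 kb downstream. These intervals did not overlap. The stretch from 1500 to 2000 bases downstream, at 77.6% GC, held 25 and 8 reads.

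Pou4f2, a factor of retinal ganglion cells, held 67 reads (25.4 RPM) in the Jarid1b shRNA library and 62 reads (12.0 RPM) in the scramble library, a ratio of 1.08 (0.56 to 1.60). Its ratio varied along the gene. The first 500 bases downstream of Pou4f2 held 34 and 37 reads, a ratio of 0.85 (0.13 to 1.56), and the stretch from 1000 to 1500 bases held 29 and 9 reads, a ratio of 2.66 (1.54 to 3.92). These intervals touched, and the stretches were chosen after their values were seen. Pou4f3, a factor of hair cells, had the fewest reads of the Pou4f genes. It held 28 reads (10.6 RPM) in the Jarid1b shRNA library and 16 reads (3.10 RPM) in the scramble library, a ratio of 1.78 (0.84 to 2.76).

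Summed over genes, the Pou3f promoters held 295 reads in the Jarid1b shRNA library and 122 in the scramble library, a log2 ratio of 2.24 (1.93 to 2.56). The Pou4f promoters held 198 and 180 reads, a ratio of 1.11 (0.81 to 1.41). These intervals cover counting error in 2 libraries only, and Pou3f1 and Pou3f3 gave most of the Pou3f reads of the Jarid1b shRNA library. By level in the Jarid1b shRNA library the order was Pou3f1, Pou4f1, Pou3f3, Pou4f2, Pou3f2, Pou4f3 and Pou3f4, and the intervals of neighbours overlapped between Pou4f1 and Pou3f3, Pou3f3 and Pou4f2, and Pou4f2 and Pou3f2. In the scramble library it was Pou4f1, Pou3f1, Pou4f2, Pou3f2, Pou3f4 and Pou4f3 (both 3.10 RPM) and Pou3f3, and the only neighbours whose intervals did not overlap were Pou4f2 and Pou3f2. Pou3f3 was last in the scramble library and the third in the Jarid1b shRNA library. RPM compares equal windows of 2 kb, so window length does not enter these orders.

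GC content moved with the H3K4me3 ratio across all promoters. Of the promoters compared with 50% to 55% GC, where Pou3f4 lies, 11.5% were higher in the Jarid1b shRNA library and the median log2 ratio was 0.17. At 55% to 60%, where Pou4f3 lies, 30.1% were higher and the median was 0.65. At 60% to 65%, with Pou3f2, Pou4f1 and Pou4f2, 56.2% were higher and the median was 1.10. At 70% to 75%, with Pou3f1 and Pou3f3, 95.4% of 87 promoters were higher and the median was 1.67. Set beside these values, Pou3f1, Pou3f4, Pou4f1 and Pou4f2 had ratios between the quartiles of their GC range, and Pou3f2, Pou3f3 and Pou4f3 lay above the upper quartile of theirs. Within the 7 loci, the 16 stretches of 500 bases with at least 65% GC and 10 reads held 471 reads in the Jarid1b shRNA library and 235 in the scramble library, a ratio of 1.97 (1.74 to 2.20). The 18 stretches with 55% to 65% GC held 176 and 130 (1.41, 1.07 to 1.74), and the 3 below 55% held 22 and 28 (0.62, −0.25 to 1.48). Stretches were kept on the reads of both libraries together. Those next to the GENCODE start of Pou3f3, all with at least 65% GC, reached 10 reads only through the Jarid1b shRNA library. The class ratios are therefore a description only.

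**Figure D3:**
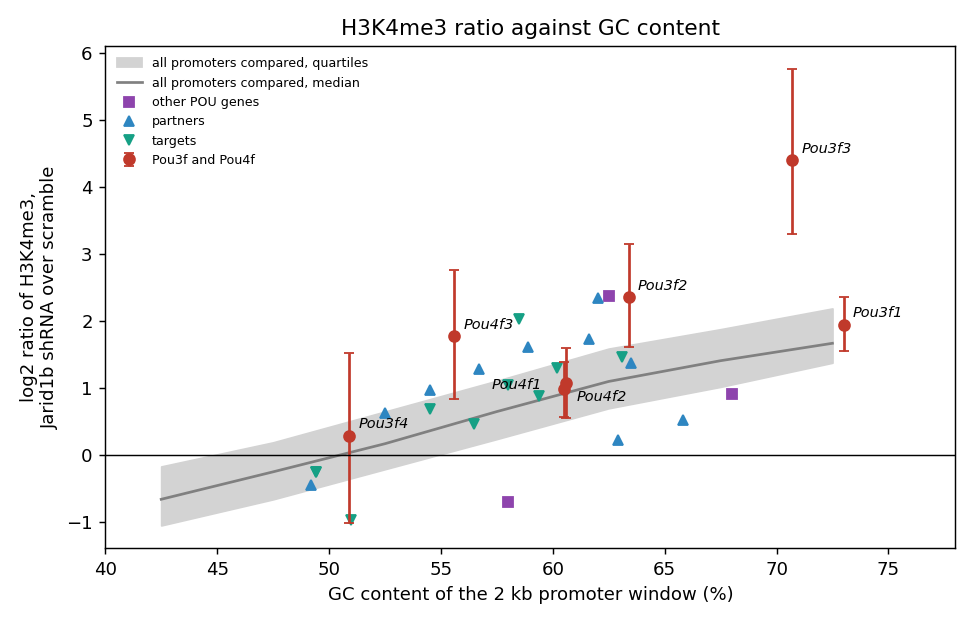
The log2 ratio of H3K4me3, Jarid1b shRNA over scramble, against the GC content of the 2 kb promoter window. Red circles are the Pou3f and Pou4f genes with exact 95% intervals for counting error, other symbols are the listed POU genes, partners and targets that could be compared, and the grey line and band are the median and quartiles of all 13273 promoters compared. Pou3f3 at 4.41, Pou3f2 at 2.36 and Pou4f3 at 1.78 lie above the band.

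In background bins outside promoters the ratio between the libraries also went up with GC content, and each promoter was set against it. When the ratio of background bins with the same GC content was subtracted, 3 of 7 genes remained higher, and 0 lower, beside 6.03% higher and 4.52% lower of all promoters. The 3 were Pou3f2 (1.13), Pou3f3 (2.69) and Pou4f3 (1.24). Pou3f1 then had a ratio of 0.23, Pou4f1 of 0.19, Pou4f2 of 0.28 and Pou3f4 of 0.13, and none of these 4 intervals excluded no change. The class of background bins with the highest GC averaged 66.6% over 123 bins. Pou3f1 and Pou3f3 exceed it and took its value, so their own background ratio was not measured. When the ratios were scaled to the median promoter, 4 of 7 were higher and 0 lower, beside 12.0% higher and 8.99% lower of all promoters, and Pou4f2 was lost at 0.67. The part of GC content in the difference between the libraries was not tested, since 1 library per condition does not tell it apart from the shRNA.

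**Figure D4:**
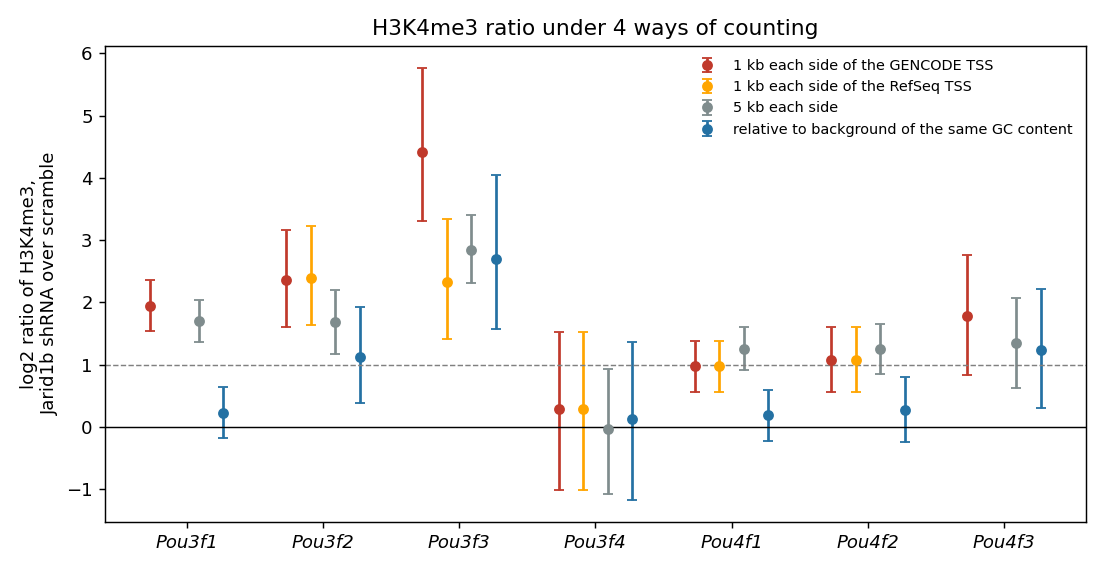
The log2 ratio of H3K4me3, Jarid1b shRNA over scramble, counted in 4 ways, with exact 95% intervals for counting error. The ways are 1 kb to each side of the GENCODE TSS (red), the same around the RefSeq TSS (orange, 5 genes), 5 kb to each side (grey), and the first relative to background of the same GC content (blue). The dashed line is 2-fold. Pou3f3 is above it in all 4 ways, from 2.33 to 4.41, and Pou3f1 drops to 0.23 in the last.

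Jarid1b was enriched over background in both of its libraries at 4 of the 7 promoters, Pou3f1, Pou3f2, Pou3f3 and Pou4f2, where 7.98% of all promoters passed in both. Enrichment is the number of reads in the window over the number expected from the genome or from the flanks, whichever was larger. Pou3f1 held 36 and 20 reads in replicates 1 and 2, a 4.09-fold (95% interval 2.87 to 5.66) and a 5.88-fold enrichment (3.59 to 9.08). Pou4f2 held 29 and 8 reads, 4.60-fold and 5.0-fold. Pou3f2 held 38 and 15 reads, 3.28-fold and 3.57-fold, and Pou3f3 held 24 and 12, 2.76-fold and 4.44-fold. The median promoter stood at 1.47-fold and 1.54-fold. Pou3f1 and Pou4f2 were above the 95th percentile of enrichment in both libraries.

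The remaining 3 genes did not pass in both Jarid1b libraries. Pou4f1 with 18 and 5 reads (2.81-fold and 2.78-fold) and Pou4f3 with 25 and 9 reads (3.97-fold and 2.73-fold) passed in replicate 1 only. Pou3f4 with 7 and 4 reads (2.06-fold and 3.19-fold) passed in neither, and its intervals of 0.830 to 4.25 and 0.870 to 8.18 included the background level. In replicate 1 alone 6 of 7 genes passed, where 26.8% of all promoters did, and in replicate 2 alone 4 of 7, where 10.7% did. With windows of 500 bases to each side, 1 of the 7, Pou4f2, passed in both libraries, where 1304 of all 22367 promoters did.

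The Jarid1b files share sequenced fragments across the genome and were counted as 1 sample (n = 1), so a call in both is no check between cultures. Over all chromosomes, replicate 1 held 16.8% of the positions that replicate 2 had on the plus strand, 9.52 times the median at other offsets within 12 bases, and 19.8% of those on the minus strand at an offset of −8 bases, 7.88 times. At the 7 promoters this held for 13 of the 73 reads of replicate 2 (17.8%), 6 of 36 on the plus strand and 7 of 37 on the minus strand. With the reads of both summed, all 7 promoters passed, where 34.1% of all promoters did. The sum counts a shared fragment in each file, although the Poisson test takes reads as independent. All calls from summed Jarid1b reads given here carry this limit. Among the promoters compared for H3K4me3, 6.69% of those with 50% to 55% GC were called for Jarid1b and 58.6% of those with 70% to 75%. The few promoters below 40% GC went the other way, with 4 of 4 called at 30% to 35% and 10 of 28 at 35% to 40%. Against background bins of the same GC content, only Pou3f1 of the 7 passed in both libraries (2.03-fold and 2.73-fold), where 0.295% of all promoters did. Pou3f1 and Pou3f3 exceed the GC class of bins with the highest GC, which averaged 66.6%, and took its rate. Their own Jarid1b background was therefore not measured, and the rate was still going up with GC content at that class. With reads summed and the same background, Pou3f1, Pou3f2, Pou4f2 and Pou4f3 passed, where 5.66% did. Pou3f3, which had the highest H3K4me3 ratio of the 7, stood at 1.36-fold and 1.64-fold on this scale.

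**Figure D5:**
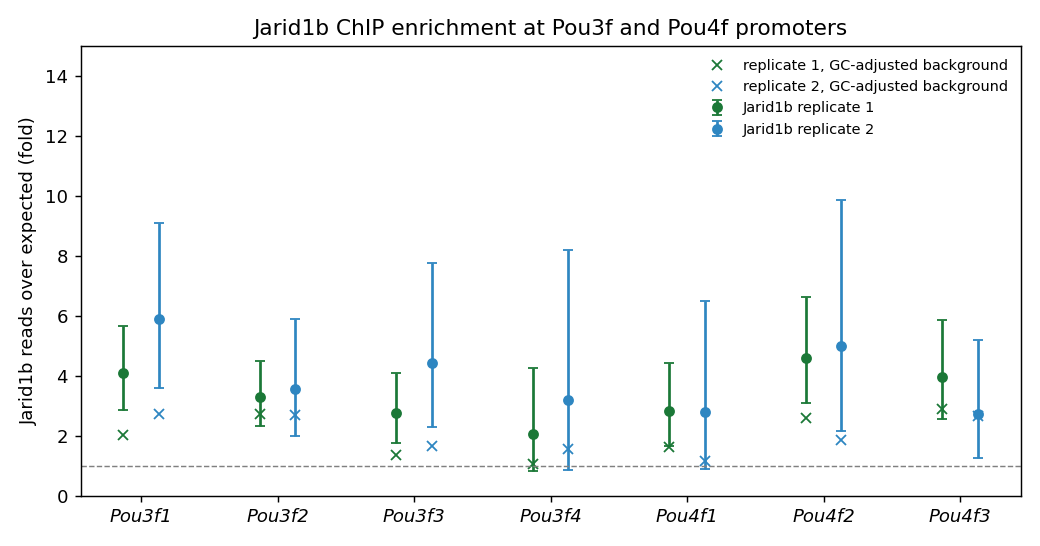
Jarid1b reads over the expected background within 1 kb of each TSS, in Jarid1b replicate 1 (green) and replicate 2 (blue), with exact 95% Poisson intervals for counting error. Crosses give the same reads over background of the same GC content, and the dashed line is the background level. At Pou3f1 and Pou3f3 the crosses use the background class with the highest GC, which averaged 66.6%, below their own GC content. Crosses lie below their points at all 7 genes, and the interval of Pou3f4 reaches below the line in both libraries.

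Jarid1b reads were spread over the 7 windows. The fullest stretch of 200 bases, at any place in the window, held between 21.4% (Pou3f1) and 45.5% (Pou3f4) of the reads of both libraries. Of the reads within 5 kb of the TSS, between 29.6% (Pou3f3) and 48.1% (Pou4f3) of replicate 1 and between 38.5% (Pou4f1) and 51.7% (Pou3f2) of replicate 2 lay within 1 kb of it. For H3K4me3 this share ran from 54.5% (Pou4f2) to 79.4% (Pou3f1) in the Jarid1b shRNA library, above both Jarid1b libraries at each of the 7 genes. In the scramble library it ran from 18.4% (Pou3f3) to 79.7% (Pou4f1), and at Pou3f2 and Pou3f3 it was below both Jarid1b libraries. By sliding stretches of 500 bases, Jarid1b replicate 1 had its maximum between 50 bases upstream of the TSS (Pou4f3) and 1250 bases downstream (Pou4f2).

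The other POU genes were measured for 7 of 8 listed, and 3 could be compared. Pou6f1 held 48 reads in the Jarid1b shRNA library and 18 in the scramble library and was higher (log2 ratio 2.38). Pou2f1, which encodes the broadly expressed Oct1, held 148 and 154 reads (0.91). Pou5f1, which encodes the stem cell factor Oct4, held 126 and 401 (−0.70), and neither was called in either direction. Jarid1b passed in both libraries at Pou2f1 and Pou5f1. Against background bins of the same GC content neither passed in both libraries, and Pou5f1 passed with reads summed. Pou1f1 of the pituitary held 0 and 2 H3K4me3 reads and was not compared, and Pou2f2 and Pou2f3 had 15 and 10 reads over both H3K4me3 libraries.

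Of 14 listed partners and upstream regulators, 13 were measured and 10 compared. H3K4me3 was higher in the Jarid1b shRNA library at 5 of the 10 and lower at none, with a median log2 ratio of 1.12. Over all promoters compared, 24.0% were higher and 2.37% lower, with a median of 0.41. When the ratio of background bins with the same GC content was subtracted, 1 of the 10 remained higher, beside 6.03% of all promoters. Among the highest ratios were Neurog2 (65 reads in the Jarid1b shRNA library and 25 in the scramble library, 2.35), Zic1 (14 and 9, 1.61) and Neurog1 (24 and 18, 1.38). Neurog2 and Neurog1 are proneural factors. The lowest were Neurod1 (9 and 24, −0.45) and Sox2 (143 and 239, 0.23), the stem cell and neural progenitor factor that pairs with Pou5f1 and Pou3f2. Jarid1b passed in both libraries at 7 of the 13, where 7.98% of all promoters did. Among the 7 were Isl1 (5.48-fold mean enrichment), a partner of Pou4f1 and Pou4f2, and Sox2 (4.51-fold). Against background bins of the same GC content, 0 of the 13 passed in both libraries, where 0.295% of all promoters did. With reads summed and that background, 8 of the 13 passed, where 5.66% did.

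Of 15 listed targets, 14 were measured and 10 compared, with 4 higher, none lower and a median of 0.79. Over all promoters compared, 24.0% were higher and 2.37% lower, with a median of 0.41. When the ratio of background bins with the same GC content was subtracted, 1 of the 10 targets remained higher, beside 6.03% of all promoters. Among the highest were Eomes (63 reads in the Jarid1b shRNA library and 30 in the scramble library, 2.04), a target of Pou4f2 in the retina, Ntrk3 (45 and 32, 1.46), a neurotrophin receptor of sensory neurons, and Nes (39 and 31, 1.30), whose neural enhancer binds Pou3f factors. Snap25 (6 and 23, −0.97) was the lowest, and Crh (12 and 28, −0.25) was also among the lowest. Jarid1b passed in both libraries at 3 of the 14, where 7.98% of all promoters did. The 3 were Ntrk3 (3.94-fold mean enrichment), Nes (3.69-fold) and Eomes (3.65-fold). Against background bins of the same GC content, 0 of the 14 passed in both libraries, and 2 passed with reads summed.

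The genes whose H3K4me3 profiles were most like those of the 5 members with at least 50 reads were found by Pearson r over 200 values, 100 bins of 100 bases in each of the 2 libraries. Pou3f1 was most like Ppp3ca (r = 0.793), Wdr26 (0.786) and Yrdc (0.778). Pou3f3 was most like Zfp423 (0.646), which held 168 reads in the Jarid1b shRNA library and 59 in the scramble library (log2 ratio 2.48) at 71.3% GC, then Fbxo11 (0.594) and Zbtb10 (0.564). Pou3f2 was most like Igdcc3 (0.630), Ier5 (0.626) and Grsf1 (0.622), Pou4f1 most like Ankrd9 (0.772), Sgms1 (0.753) and Fam102a (0.746), and Pou4f2 most like Icam1 (0.772), Tsc22d2 (0.767) and Ppp3ca (0.745). The bins share their library and depth, so r is a description only. It was taken over both libraries together, so it reflects the ratio between them as well as the shape.

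Coding genes within 100 kb of the members had ratios below or overlapping those of the members. Within 100 kb of Pou3f1, Utp11l held 60 reads in the Jarid1b shRNA library and 126 in the scramble library (log2 ratio −0.10, −0.57 to 0.35) and Sf3a3 58 and 126 (−0.15, −0.63 to 0.31), below the interval of Pou3f1. Fhl3 held 61 and 55 reads (1.12, 0.57 to 1.67), which overlaps it. Near Pou4f2, Rbmxrt and Slc10a7 had ratios of 0.06 (−0.23 to 0.34) and 0.19 (−0.10 to 0.47), below the 0.56 to 1.60 of Pou4f2. Near Pou4f1, Rnf219 held 48 and 42 reads (1.16, 0.53 to 1.79), beside 0.98 at Pou4f1. The coding neighbours of Pou3f3 and Pou4f3 had 2 and 6 reads over both H3K4me3 libraries, and Pou3f2 and Pou3f4 had no coding neighbour within that distance.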

How the data were processed

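The data were 4 ChIP-seq libraries (H3K4me3 in Jarid1b shRNA cells, H3K4me3 in scramble cells, Jarid1b replicates 1 and 2), grouped by their labels. Reads had been aligned to mm9 by Bowtie (version not given in the sources used), per the submitters' processing notes, and the labels' protocols also name MACS peaks and IgG normalization. As deposited, each row is an aligned read whose score is 0, positions repeat and no peaks are listed. No IgG library was used here.

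For autosomes and sex chromosomes, repeats of a 5′ position on a strand were reduced to 1 read, whose position was moved 75 bases in the direction of the fragment. Reads within 1 kb of 22367 coding TSSs were set by a one-sided Poisson test against the genome rate or the rate in 10 kb beyond each window edge, whichever was higher, with Benjamini-Hochberg adjustment over all promoters at 0.05. The genome rate was 2.06 reads per window in the Jarid1b shRNA library, 4.03 in the scramble library, and 3.39 and 1.25 in the Jarid1b libraries. H3K4me3 ratios used reads scaled to the total kept (RPM), with exact Clopper-Pearson intervals conditional on the summed reads. All intervals reflect counting error alone, and PCR copies that carry no molecular identifier may inflate the counts.

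Background by GC content came from autosomal 1 kb bins over 5 kb from any TSS, in 14 GC classes, without H3K4me3-enriched bins, without the bins next to those (chosen after seeing the data) and with fewer than 30 reads in Jarid1b replicate 1 and the scramble library. The RefSeq windows, the windows of 5 kb to each side and the GC adjustment centred on all promoters were also chosen after seeing the data. RefSeq starts were matched by sequence from GRCm38.p6. The members and lists were chosen with earlier results of these data known. From the partner and target lists, the 4 highest and 2 lowest ratios and the 3 highest Jarid1b enrichments were named. Some genes that this rule selects are not reported here. Listed genes not measured (Pou5f2, Sox4, Gfi1, Sox1, Map2) had no single coding entry of that name in the annotation as used here. Python 3.11.15, numpy 2.4.6, pandas 2.3.3 and scipy 1.17.1 were used. The tests were run on simulated Poisson counts, with an even background rate for Jarid1b. That check does not cover background that varies with GC content.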

Additional observations from a re-analysis of the deposited data

How the results depend on the processing

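No paired analysis was possible because each H3K4me3 condition has 1 library and the Jarid1b replicates form 1 group. Of 70 values of single-gene H3K4me3 ratios under other settings, 60 kept their call, 5 lost and 5 gained one, and Pou3f4, which was never called, changed sign. Of 63 values of single-gene Jarid1b enrichment, 51 kept their call, 6 lost and 6 gained one. The ratio ran from 0.23 to 2.93 at Pou3f1, 1.13 to 2.75 at Pou3f2, 2.33 to 5.67 at Pou3f3, −0.12 to 0.71 at Pou3f4, 0.19 to 1.30 at Pou4f1, 0.28 to 1.36 at Pou4f2 and 1.24 to 2.02 at Pou4f3. The 5 genes with higher H3K4me3 fell to 3 with the GC trend removed, where 6.03% of all promoters were higher. They also fell to 3 when the trend was centred on all promoters, where 2356 of 13273 were higher. With the interval wholly past 2-fold 3 remained, where 1161 of all promoters were higher. The median ratio of the 7, 1.78 without adjustment, was 0.28 with the GC trend removed and 0.74 with it centred.

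The 4 members with Jarid1b in both libraries became 1 with windows of 500 bases to each side, 1 with background of the same GC content and 7 with summed reads, and 4 to 6 when a Jarid1b replicate was left out. Over all promoters the 1785 Jarid1b calls became 1304 with windows of 500 bases to each side and 5535 with the genome rate only. They became 862 at an adjusted p of 0.01 and 66 with background of the same GC content. With summed reads there were 7618, and with a replicate left out 2401 to 5987.

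Over all promoters, the 3185 higher became 1594 with median scaling, 800 with the GC trend removed and 2356 with it centred. They became 5799 with the interval alone and 1161 with the interval wholly past 2-fold. The 315 lower became 1193 with median scaling, 121 with background scaling, 600 with the GC trend removed, 63 with it centred, 1493 with the interval alone and 19 with it wholly past 2-fold. The 9 partners and targets that were higher became 4 with median scaling, 2 with the GC trend removed, 5 with it centred and 2 with the interval wholly past 2-fold. The cause of these changes was not tested. Depth limits Pou3f4 and Pou4f3 most, with 26 and 44 reads over both H3K4me3 libraries.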
